A study of Rattus norvegicus with 241 samples.

Results

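PROCR and SORBS2, which the study names in a subcluster of what it calls secretory basal cells of the rat mammary gland, were followed through every deposited bulk and single-cell table. They are 2 of 21707 gene symbols in those tables and were matched by symbol, ignoring case. Both were listed in all of the tables, which hold 202 bulk RNA-seq samples of sorted cells and 39 single-cell RNA-seq libraries.

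PROCR is the endothelial protein C receptor, a membrane protein of endothelium that presents protein C to the thrombin-thrombomodulin complex and so helps to restrain coagulation. In the mouse mammary gland it has also been used to mark a subset of basal cells. SORBS2 is an adaptor of the SORBS (vinexin) family that binds actin, vinculin and signalling proteins at stress fibres and cell adhesions, and it is well known from striated muscle and epithelia. The mammary epithelium itself has an inner luminal layer, which holds progenitor and mature hormone-sensing cells, and an outer basal layer of contractile cells with keratins 5 and 14. Pericytes and vascular smooth muscle share the contractile genes, such as ACTA2 and MYH11, with that basal layer.

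Female rats received the TGFBR inhibitor LY2157299 (galunisertib; TGFBRi) at 75 mg per kg, or its vehicle. Young ACI rats, a strain prone to estrogen-driven mammary tumors, were treated from age 35 days for 10 days and sampled 0, 7 or 14 days after the last dose, with 3 samples per group in each sort. Young Sprague Dawley (SD) rats were treated from age 24 days for 10 days and sampled at day 0, with 4 samples per group. Adult ACI rats of 18 to 24 weeks, virgin or parous, were treated for 10 days. Other SD rats were treated from age 21 days for 10 days, then received the carcinogen N-nitroso-N-methylurea (NMU) at 50 mg per kg and were sampled 87 days later, with or without tumors under TGFBRi and with tumors under vehicle. A further set of ACI rats was treated for 21 days from age 38 days, with or without a 37 mg estradiol (E2) pellet. Bulk RNA came from basal (CD24+CD29high), luminal (CD24+CD29low) and CD45+ sorts of glands, and from EPCAM+ and CD45+ sorts of NMU tumors. Single cells came from basal and luminal sorts of 3 TGFBRi and 3 vehicle ACI rats, from the same sorts of 6 TGFBRi and 3 vehicle SD rats, and from unsorted whole gland of 6 TGFBRi and 3 vehicle SD rats. The single-cell rats were young, treated for 10 days from age 35 days (ACI) or 24 days (SD), and sampled at day 0.

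The recovered gene reads of the bulk samples ranged from 4194912 to 52314784. The ACI sort held 9880 basal and 6882 luminal cells, the SD sort 15982 basal and 23784 luminal cells, and the whole gland 103524 cells. Median UMIs per cell and library were 4251 to 15941 in the ACI sort, 4365.5 to 14448 in the SD sort and 2820 to 3885 in the whole gland. Pairs of libraries shared 0 to 7 cell barcodes in the sorted sets and 88 to 284 in the whole gland, at most 2.51% of the smaller library. The sorted tables had been filtered by the authors to cells with keratin reads and no PTPRC read. By the paper's methods, sorted and whole-gland libraries were made with different library kits. Libraries that stood apart were an adult vehicle virgin rat in bulk and TGFBRi replicate 4 of the SD basal sort, which held 563 cells. Some comparisons that turn on either are given with and without it.

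In the whole gland, the named class with the most PROCR was pericyte and smooth muscle-like cells, followed by both endothelial classes, fibroblast-like cells and basal cells. Classes were named from marker lists after clustering without PROCR and SORBS2, and the levels below are descriptions. Of 5386 pericyte and smooth muscle-like cells, 81.7% had a PROCR UMI. Over the 9 rats their PROCR level, as the gene's UMIs scaled to the UMI total of the class (CPM), was 5923 at the lowest, 6879 at the median and 12861 at the highest. This class was 5.20% of the cells and held 62.05% of all PROCR UMIs.

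The next classes lay well under it. PROCR was found in 73.9% of lymphatic endothelial-like cells, with rat levels of 637, 1227 and 1580 CPM (lowest, median, highest). It was found in 64.95% of vascular endothelial-like cells at 730, 878 and 1368 CPM, so the rat ranges of both endothelial classes overlapped. Fibroblast-like cells followed with 45.97% of cells and rat levels of 197, 270 and 488 CPM, apart from the endothelial classes. Basal cells had a PROCR UMI in 28.1% of cells at 56.4, 123 and 150 CPM, below every fibroblast value.

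Lymphocytes, taken to lack PROCR, served as the background. Free RNA as its source was not tested. A PROCR UMI was seen in 1.40% of B cells and 1.94% of T and NK cells, at median depths of 2554 and 2924 UMIs. Luminal progenitor cells had 3.06% and mature luminal cells 5.36%, at deeper coverage (medians of 7706 and 10054.5 UMIs), while the median levels over rats were 5.83 and 8.35 CPM against 8.61 in T and NK cells. The highest T and NK level, in a vehicle rat, lay within the range of basal cells over rats. By share of cells luminal PROCR lay above lymphocytes, at deeper coverage, while by median level it did not. PROCR in luminal cells of the whole gland was thus not told apart from background. Macrophage-like cells (8.34% of cells, 86.1 CPM) and Schwann-like cells (9.02%, 74.3 CPM) overlapped the basal range over rats.

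SORBS2 had another order. Pericyte and smooth muscle-like cells again came first, with a SORBS2 UMI in 19.3% of cells and rat levels of 25.2, 115 and 174 CPM, and held 27.2% of all SORBS2 UMIs. Schwann-like cells (15.5% of cells, at 21.96, 67.6 and 98.6 CPM) and vascular endothelial-like cells (12.9% of cells, at 22.1, 49.9 and 61.7 CPM) overlapped them. Mature luminal cells had 19.7% of cells at 10.7, 18.7 and 40.9 CPM, and luminal progenitor cells 14.2% at 9.50, 19.9 and 28.99. The luminal classes did not differ beyond their spread.

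Basal cells of the whole gland were low in SORBS2. A UMI was seen in 3.42% of them, with rat levels of 1.496, 6.12 and 11.6 CPM. Cells that should lack SORBS2 gave 0.226% (B cells), 0.225% (T and NK cells), 0.414% (macrophages) and 0.711% (fibroblasts), the last at a median depth of 7973 UMIs against 6935 in basal cells. SORBS2 detection in basal cells was thus above that background and below that of either luminal class.

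**Figure D1:**
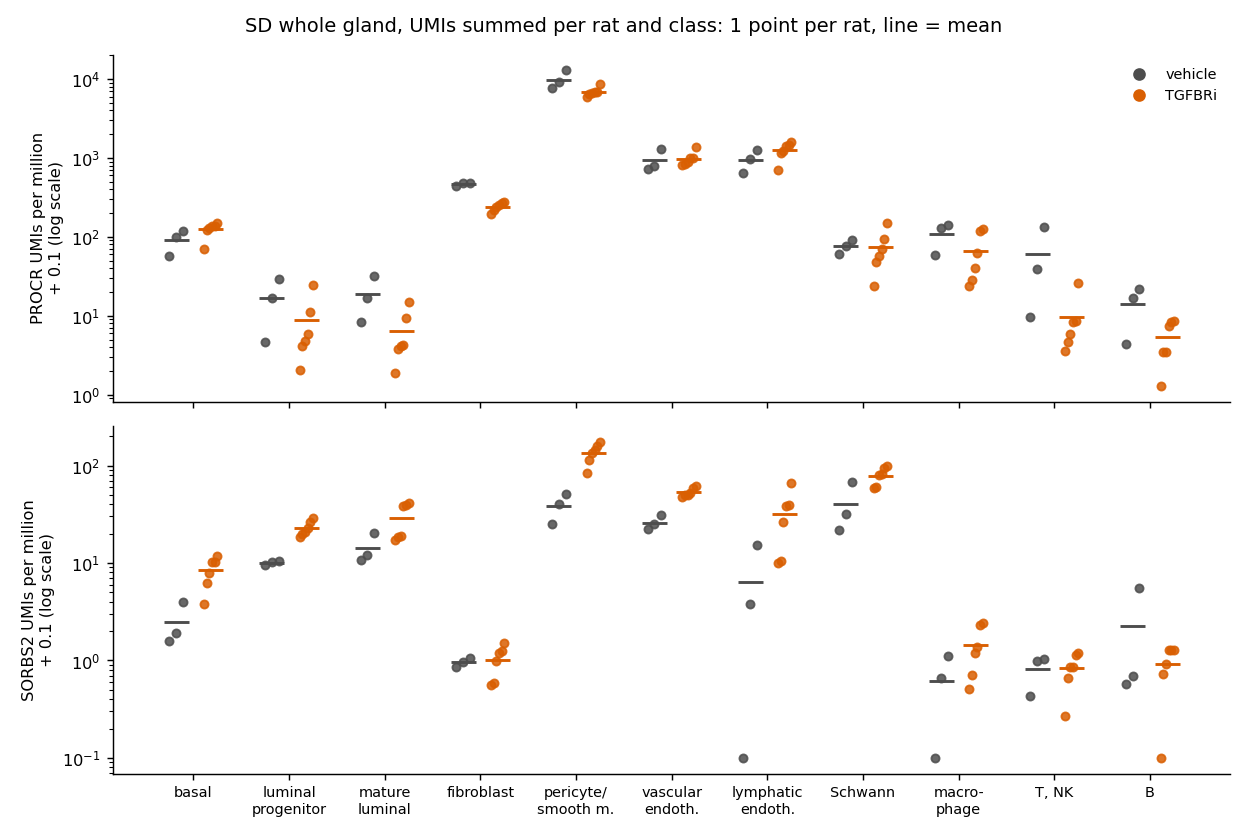
PROCR and SORBS2 levels by cell class in the SD whole gland, in CPM on log axes, with 1 point per rat (6 TGFBRi, 3 vehicle) and a line at each group mean. PROCR falls from 5923 to 12861 in pericyte and smooth muscle-like cells to 56.4 to 150 in basal cells, and within each treatment basal cells lie below both luminal classes in SORBS2.

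The pericyte and smooth muscle-like class was made of a pair of clusters that differed in SORBS2. The first (4125 cells) had more RGS5, a pericyte gene, which was read in 73.3% of its cells against 42.3% in the second. The second (1261 cells) was led by XIRP1, SNCG, MUSTN1 and MYH11, genes of contractile cells, with MYH11 in 93.7% and the intermediate filament gene DES in 87.5% of cells. PROCR was 8004 CPM in the first and 9526 in the second. SORBS2 was 30.5 CPM in the first cluster and 314 in the second, where 35.9% of cells had both genes. A further cluster of 1421 cells with PROCR in 93.7% and SORBS2 in 26.04% of cells stayed unnamed under the marker rule. It carried endothelial and pericyte markers together, and 37.3% of its cells were among the highest doublet scores. A second unnamed cluster, of 21 cells from a single vehicle rat, had PROCR in every cell at 14891 CPM and SORBS2 in none, with macrophage and pericyte markers together.

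Other genes of the pathways showed where the members sit among their partners. THBD, which encodes thrombomodulin and acts with PROCR on the cell surface, was also highest in the pericyte and smooth muscle-like class, at 2191 CPM. F3, tissue factor, was highest in mature luminal cells at 722. VCL, the vinculin that SORBS proteins bind, was highest in pericyte and smooth muscle-like cells at 320. The study names 9 other genes beside PROCR and SORBS2 for secretory basal cells or their subclusters, a list chosen on these samples and so no independent evidence. Among them NRG1, a ligand of ERBB receptors, was highest in basal cells. CDH5, EPAS1 and LRG1 were highest in vascular endothelial-like cells, ID3 and IGFBP7 in pericyte and smooth muscle-like cells, and S100A4, SPARCL1 and TGFBR3 in Schwann-like cells.

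In bulk, PROCR was higher in the basal than in the luminal sort of vehicle rats in each young set, while SORBS2 was higher in the basal sort at ACI day 0 and, with the rat as a block, lower at day 7. Both sorts came from the same rats, and values are deposited normalized read counts, which do not carry gene length. The labels of a day 7 vehicle rat in these comparisons disagree on its treatment, as described below. In young ACI rats at day 0, PROCR was 3132, 3258 and 4007 in basal samples and 216, 289 and 391 in luminal samples. Every basal value was above every luminal value, and the difference was 3.57 ± 0.22 on the log2 scale (SE; limma adjusted p = 8.74e-08), in a comparison that called 42.6% of all genes.

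At day 7 the basal values of PROCR were 637, 1157 and 1402 and the luminal ones 100, 209 and 310. The difference was 2.43 ± 0.54 (limma adjusted p = 0.0291, with 9.30% of genes called), and the call was lost without any basal replicate or luminal replicate 1 (adjusted p up to 0.115 over the samples left out in turn). At day 14 the difference was 2.28 ± 0.42 (limma adjusted p = 0.00631, with 20.4% of genes called), with basal values of 2361, 2538 and 2999 against 324, 516 and 926. In SD rats it was 2.24 ± 0.58 (limma adjusted p = 0.00742, with 54.3% of genes called), with 2105, 3167, 3217 and 3546 against 278, 289, 866 and 2171. One luminal SD sample thus reached the lowest basal value. In glands of NMU-treated, tumor-bearing vehicle rats the sorts overlapped, with 4676, 7586 and 9149 against 1801, 5031 and 6314, and the difference of 0.83 ± 0.49 did not pass (limma adjusted p = 0.26, with 21.1% of genes called).

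For SORBS2 the basal sort was higher at ACI day 0, and without the rat as a block no other young set passed the test. Its values were 1334, 1356 and 1661 in basal and 557, 866 and 1026 in luminal ACI samples, a difference of 0.87 ± 0.22 (limma adjusted p = 0.00701). At day 7 the order was the opposite, with 48.9, 107.2 and 281 against 222, 654 and 696, and the difference of -2.02 ± 0.73 did not pass (limma adjusted p = 0.153). With the rat as a block it did (replicate block, limma adjusted p = 0.000445). The blocked fit was not run without the day 7 vehicle rat whose labels disagree. The differences of -1.003 ± 0.43 at day 14 and 0.53 ± 0.26 in SD rats did not pass (limma adjusted p = 0.141 and 0.109).

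In the NMU set SORBS2 was lower in the basal than in the luminal sort, with 20.6, 52.9 and 121 against 123, 208 and 328. The difference was -1.97 ± 0.67 (limma adjusted p = 0.0468), with no overlap, but edgeR on the recovered reads gave an adjusted p of 0.0801. Of the 9 other study-named genes, 6 were higher and 0 lower in the basal sort at day 0, and 4 were higher and 0 lower at day 7, in comparisons that called 42.6% and 9.30% of all genes. A sort of fewer cells of a type and a sort of cells with less RNA of the gene cannot be told apart in such bulk samples.

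The CD45+ sort held PROCR and little SORBS2. The CD45+ samples may not share size factors with the other sorts, so levels across sorts are given as CPM of the recovered gene reads: in young ACI vehicle rats at day 0 PROCR was 74.7, 84.025 and 135 CPM in CD45+ samples, 205, 209 and 280 CPM in basal samples and 14.0, 18.4 and 24.8 CPM in luminal samples. SORBS2 was 3.50, 3.61 and 9.71 CPM in CD45+ samples and 86.9, 87.2 and 116 CPM in basal samples. As normalized counts, in the same CD45+ samples, SORBS2 was 80.2, 105.2 and 227 and PROCR 1714, 2447 and 3152. In the CD45+ sort of SD vehicle rats PROCR was 1365, 1819, 2160 and 11562, so that 1 sample stood far above the rest. Markers of other cells were present in these sorts: in the ACI day 0 vehicle samples the summed normalized counts of 9 fibroblast markers were 370325 to 743616 and those of 7 pericyte and smooth muscle markers 2585 to 4563. Their part in the PROCR level was not tested.

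**Figure D2:**
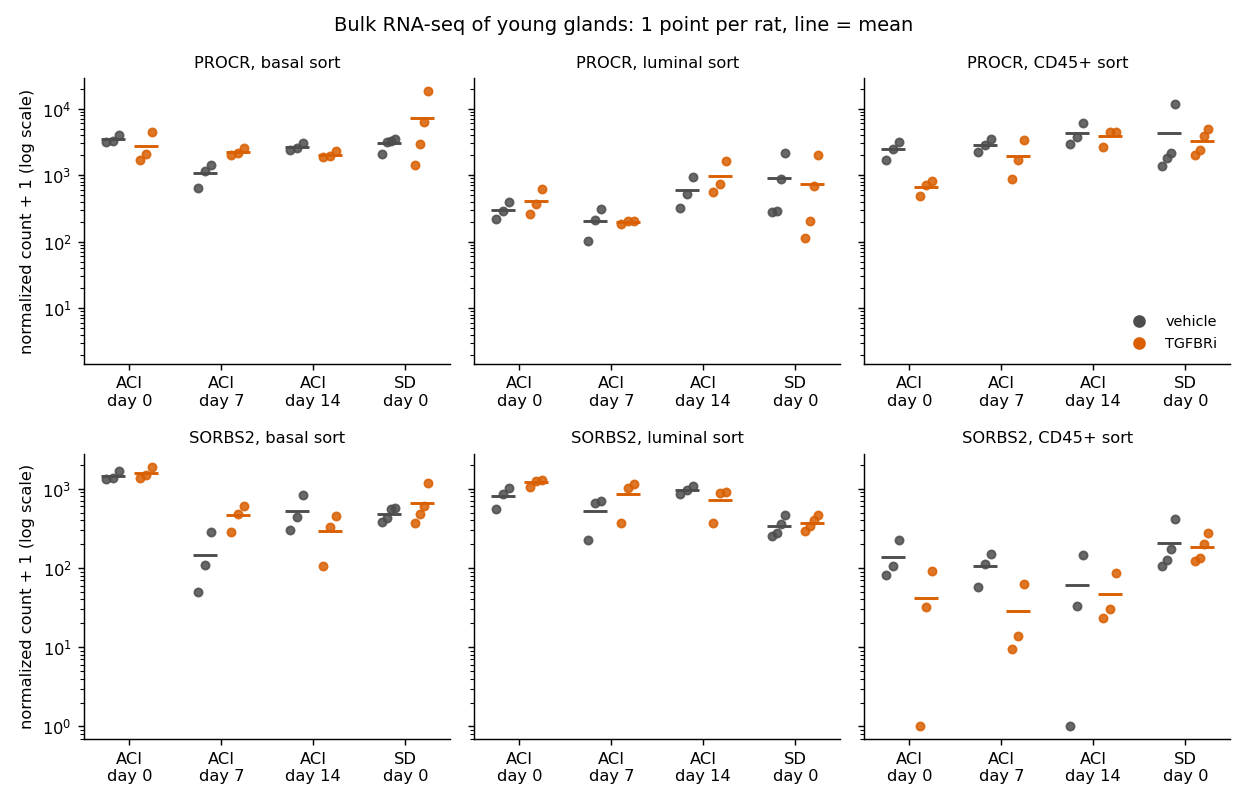
Normalized read counts of PROCR and SORBS2 in the young ACI and SD bulk samples by sort, day and treatment, on a log axis, with 1 point per sample and a line at each group mean. PROCR values of the luminal sort lie under those of the basal sort of the same day in ACI rats, and both genes lie higher in TGFBRi than in vehicle samples of the day 7 basal sort.

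Sorted single cells gave the share of basal cells that hold each gene. In the ACI basal sort PROCR was found in 31.2%, 32.4% and 27.4% of cells of the TGFBRi rats and 28.8%, 15.0% and 23.7% of the vehicle rats. To compare shares at 1 depth, cells were thinned to 2000 UMIs and shallower cells were left out, 72 of 4390 under TGFBRi and 179 of 5490 under vehicle in ACI and 641 of 12743 and 206 of 3239 in SD basal cells. TGFBRi replicate 4 of the SD sort kept 342 of its 563 cells. In ACI the thinned shares were 13.1%, 12.7% and 14.0% against 10.96%, 8.69% and 12.04%. The luminal sort had PROCR in 1.36% to 2.97% of cells. PROCR was therefore detected in a minority of basal cells in each library, and in a larger share than in the luminal sort.

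SORBS2 was found in 25.6%, 30.7% and 20.7% of ACI basal cells of the TGFBRi rats and in 44.8%, 20.1% and 30.8% of the vehicle rats. Thinned, the shares were 7.27%, 9.83% and 7.19% against 14.0%, 9.53% and 12.1%. It was not restricted to the basal sort, since 27.8% to 58.3% of ACI luminal cells had a SORBS2 UMI.

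In the SD basal sort PROCR was found in 17.3% to 39.8% of cells over the 9 rats and SORBS2 in 4.43% to 23.5%. The SD luminal sort had PROCR in 0.33% to 2.44% and SORBS2 in 14.9% to 31.5% of cells. Basal-named cells had SORBS2 at 73.2 CPM in ACI and 7.89 in SD rats, and PROCR at 84.1 and 100. The strains were sorted, sequenced and counted as separate experiments, so strain and experiment cannot be told apart.

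The shares of PROCR+, SORBS2+ and double-positive cells per rat were compared between treatments by exact 2-sided permutation tests at 2000 UMIs, 6 comparisons in all. In ACI rats PROCR averaged 13.2% under TGFBRi and 10.6% under vehicle (exact permutation p = 0.1, adjusted 0.6; the smallest p that 3 against 3 allows is 0.1). SORBS2 averaged 8.10% and 11.9% (exact permutation p = 0.2), and both genes 1.02% and 1.28% (exact permutation p = 0.5). In SD rats PROCR averaged 15.3% and 13.1%, SORBS2 4.75% and 3.54%, and both 2.18% and 1.07% (exact permutation p = 0.524, 1 and 0.5). Without TGFBRi replicate 4 the TGFBRi averages were 13.6%, 2.76% and 1.18%, so that SORBS2 was then lower than under vehicle. The ACI PROCR shares did not overlap between treatments (12.7% to 14.0% against 8.69% to 12.04%).

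Co-detection was measured as the share of SORBS2+ cells among PROCR+ and PROCR- basal cells of each rat. In ACI rats SORBS2 was found at 2000 UMIs in 6.30%, 9.36% and 7.64% of PROCR+ basal cells under TGFBRi and in 7.41%, 9.90% and 7.12% of PROCR- cells of the same rats. Under vehicle the pairs were 12.96% and 14.1%, 9.36% and 9.55%, and 13.2% and 11.9%. The mean difference was -0.20 ± 0.97 percentage points (SD over 6 rats), positive in 2 of 6 (exact sign-flip permutation p = 0.594; the smallest possible is 0.0312). Without thinning it was 7.14 points (33.8% against 26.7%) and positive in 6 of 6 (exact permutation p = 0.0312, the smallest possible). Thinning also lowered SORBS2 detection itself, to 9.80% and 10.0%, and the cause of the change was not tested.

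In the SD basal sort SORBS2 was found at 2000 UMIs in 3.19% to 30.2% of PROCR+ cells and 0.90% to 9.81% of PROCR- cells. The share was higher in PROCR+ cells of 9 of 9 rats, by 7.69 ± 6.09 percentage points (10.8% against 3.06%; exact sign-flip permutation p = 0.00391, the smallest possible). Without TGFBRi replicate 4 the mean difference was 6.09 points. When cells with 2 or more of 6 pericyte markers were left out it was 1.44 points, still positive in 9 of 9 rats (exact permutation p = 0.00391). When the cluster with pericyte and smooth muscle markers was left out it was 0.0481 ± 0.535 points (1.62% against 1.57%), positive in 4 of 9 rats (exact permutation p = 0.836). These exclusions were chosen after the data were seen.

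**Figure D3:**
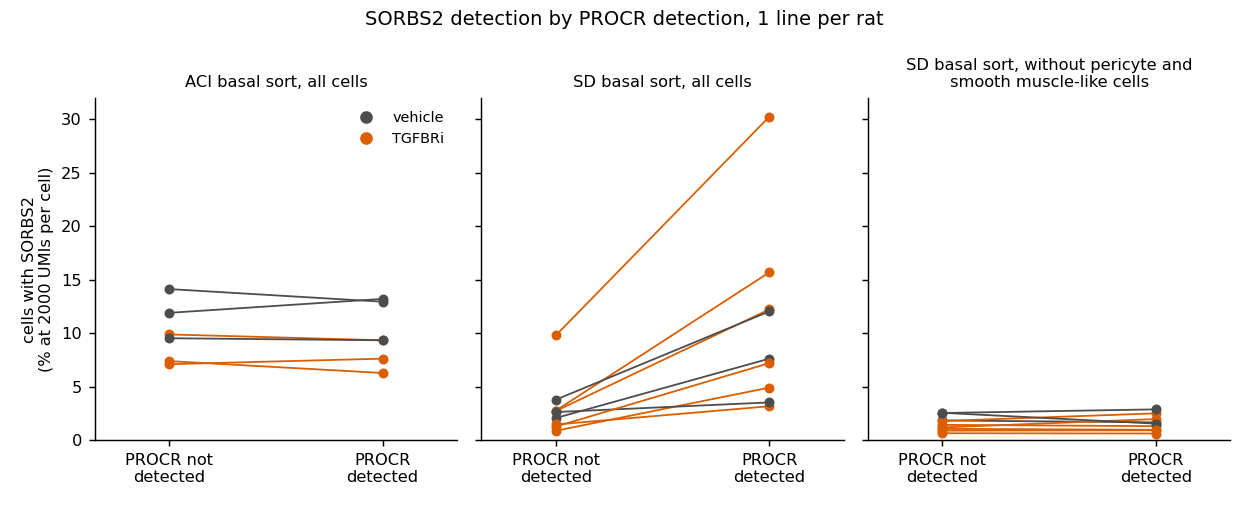
Share of cells with a SORBS2 UMI among PROCR- and PROCR+ cells of the basal sort at 2000 UMIs per cell, with 1 line per rat, for ACI, for SD, and for SD without the pericyte and smooth muscle-like cluster. The lines are flat on average in ACI (-0.20 points), rise in all 9 SD rats (7.69 points), and are flat on average once that cluster is left out (0.0481 points).

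That cluster was the part of the SD basal sort where both genes were highest. It held 663 cells from all 9 libraries, with 36.05% from a single one. All came from the basal sort, but luminal-sort cells in such a cluster would have been removed by the authors. It was led by FABP4, CRIP1, IGFBP7, SPARCL1, DES and S100A4. DES was found in 82.4% and MYH11 in 82.7% of its cells, CSPG4 in 41.2%, PDGFRB in 32.3%, RGS5 in 8.6% and NOTCH3 in 6.8%. Of the epithelial genes, KRT5 was found in 36.5%, KRT14 in 10.1% and EPCAM in 23.5%, while the endothelial CDH5 was in 9.4%. PTPRC was in 0, as cells with a PTPRC read had been removed by the authors. In basal-named cells of the same sort DES was in 1.31%, PDGFRB in 0.141%, KRT5 in 94.9% and EPCAM in 91.3%, while MYH11 was in 96.2%. KRT5 was thus read in more cells of the cluster than PDGFRB, RGS5 or NOTCH3, and in fewer than DES, MYH11 or CSPG4. KRT14 and EPCAM were read in fewer cells than PDGFRB. KRT5 was also read in fewer cells than among basal-named cells. RGS5 was read in fewer cells than in either whole-gland cluster of that class (73.3% in the RGS5-rich one). Those libraries were made with another kit, so kit and cells cannot be told apart in this. The sorted cells had been kept only with keratin reads, so keratin detection was in part set by that filter. The name pericyte and smooth muscle-like follows the marker rule. At the coarser Leiden resolution of 0.4 no SD sorted cluster took that name.

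The genes are called by their symbols throughout, not as markers of a cell type. PROCR was found in 64.1% of the cells of that cluster at 1310 CPM, and in 26.2% of the 14205 basal-named cells at 100. SORBS2 was found in 65.6% at 549 CPM, against 5.05% at 7.89. The ratio of levels was 13.05 for PROCR and 69.7 for SORBS2, and 48.9% of the cells had both. Fibroblast-like cells of the same sort (142 cells) had PROCR in 57.04% at 285 CPM but SORBS2 in 4.93%.

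The cluster was 4.15% of basal-sort cells and held 38.0% of their PROCR UMIs and 76.9% of their SORBS2 UMIs. Over the 9 rats it took 0.317% to 42.5% of the cells, 5.4% to 64.2% of PROCR UMIs and 13.6% to 96.2% of SORBS2 UMIs. The highest cell share, 42.5%, was that of TGFBRi replicate 4. Without that library, a setting chosen after the data were seen, the cluster was 2.75% of cells and held 35.8% of PROCR UMIs, 72.9% of SORBS2 UMIs and 56.3% of double-positive cells, and its CPM was 14.3 and 67.8 times that of basal-named cells. Its share had a median of 3.12% under TGFBRi and 2.09% under vehicle. The test compared means, which differed by 7.44 points (exact permutation p = 0.381), and was not run without TGFBRi replicate 4.

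The other study-named genes were chosen on these same samples, so their levels are no independent evidence. Several of them were higher in the same cluster. SPARCL1 was 1877 CPM there and 2.93 in basal-named cells, S100A4 1423 and 3.13, EPAS1 425 and 4.58, and CDH5 120 and 0.10. THBD, the PROCR partner, was 220 and 0.42. NRG1 and TGFBR3 went the other way, at 116 against 820 and 92.8 against 309. The SORBS partners ran both ways. SORBS3 (6.81 and 0.97 CPM), PTK2B (6.08 and 0.95), DNM1 (4.60 and 1.16), FLOT2 (62.6 and 21.3) and ZYX (158 and 71.4) were higher in the cluster, PXN (37.02 and 109.9) was lower, and VCL (364 and 271) and TLN1 (483 and 404) differed less.

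Cells were also grouped by the members alone. Of the SD basal-sort cells, 543 had both genes, and 59.7% of these lay in the pericyte and smooth muscle-like cluster. KRT5 was found in 62.1% and DES in 58.6% of the double-positive cells, against 94.01% and 3.0% of the 3870 cells with PROCR alone and 84.7% and 17.7% of the 645 with SORBS2 alone. In the ACI basal sort 888 cells had both, and KRT5 was found in 98.9% and DES in 2.4% of them. DES was thus read in over 1 in 2 of the double-positive cells of SD rats and in few of those of ACI rats.

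Basal-named ACI clusters had PROCR in 19.4% to 37.3% and SORBS2 in 15.6% to 44.4% of cells. A cluster of 47 cells, below the 50 cells required for a name and led by COL3A1, COL1A1 and FABP4, had PROCR in 46.8% at 373 CPM and SORBS2 in 48.9% at 136. In SD, the basal-named clusters had PROCR in 22.2% to 29.2% and SORBS2 in 3.46% to 7.03% of cells. Within the basal class, then, neither gene was limited to a cluster in either strain.

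**Figure D4:**
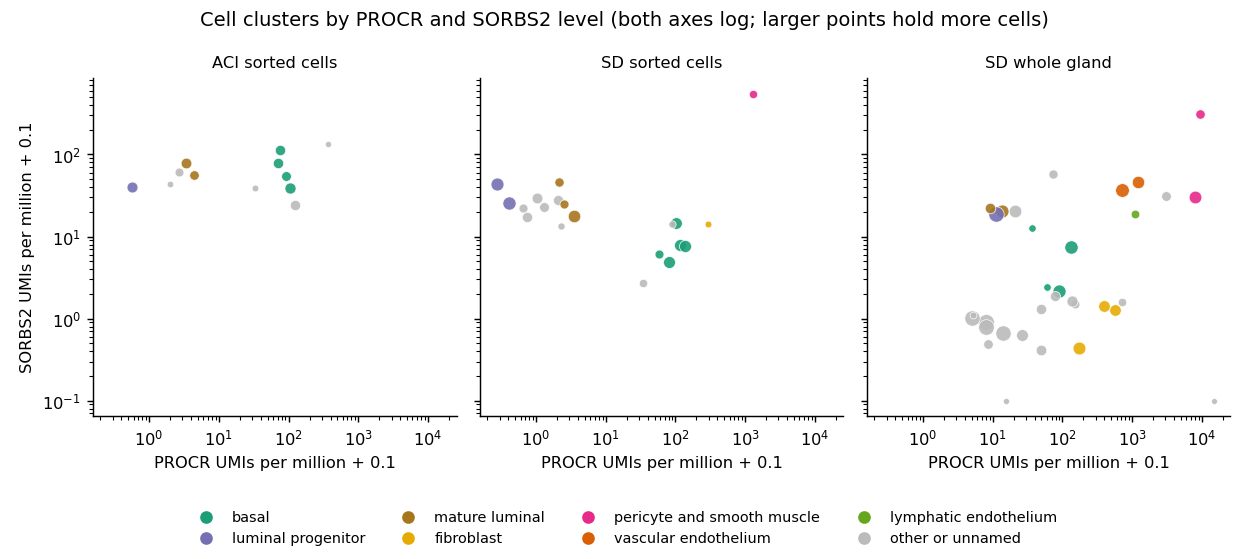
PROCR against SORBS2 in CPM for each cluster of the 3 single-cell sets, on log axes, with larger points for clusters with more cells. The pericyte and smooth muscle-like cluster of the SD sort lies alone at 1310 PROCR and 549 SORBS2, and those of the whole gland lie at 8004 and 9526 PROCR, below a single unnamed cluster of 21 cells.

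In bulk, TGFBRi changed PROCR in 1 and SORBS2 in 0 of 32 comparisons with vehicle, where limma called 0.588% of all gene tests. An unadjusted p under 0.05 was reached in 4 comparisons by PROCR and in 3 by SORBS2, and edgeR and DESeq2 also called 1 and 0. The log2 differences ran from -1.87 to 2.11 for PROCR (14 above 0, 18 below) and from -3.13 to 1.93 for SORBS2. Some comparisons share their control samples, so they are not independent.

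The called change was PROCR in the CD45+ sort of young ACI rats at day 0, a comparison that called 2.85% of genes. PROCR was 486, 718 and 812 under TGFBRi against 1714, 2447 and 3152 under vehicle. All TGFBRi values lay below all vehicle values, and PROCR was lower by a log2 difference of -1.85 ± 0.41 (limma adjusted p = 0.0281). Fitted on those 6 samples alone the adjusted p was 0.0962, and the call was lost without any TGFBRi replicate or vehicle replicate 2, with adjusted p from 0.0180 to 0.0966.

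The same samples differed in markers of other cells. The summed counts of 9 fibroblast markers were 24245 to 151113 under TGFBRi and 370325 to 743616 under vehicle. Those of 7 pericyte and smooth muscle markers were 378 to 839 and 2585 to 4563, and those of 8 vascular endothelial markers 2943 to 4270 and 4081 to 9999. Their part in the fall of PROCR was not tested. Of the 9 other study-named genes 3 fell, namely CDH5 (-2.48), IGFBP7 (-2.73) and EPAS1 (-1.83), with a list median of -1.57 against -0.04 over all genes. Of 13 protein C and thrombin pathway genes 0 were called, and of 14 SORBS partners 1 fell (SORBS3, -1.58).

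In the day 7 basal sort both genes were higher under TGFBRi without passing the test, where 0.00639% of genes were called. PROCR was 1979, 2179 and 2551 against 637, 1157 and 1402, a log2 difference of 1.14 ± 0.36 (limma adjusted p = 0.633). SORBS2 was 287, 484 and 608 against 48.9, 107.2 and 281, a difference of 1.93 ± 0.60 (limma adjusted p = 0.633). Neither gene's groups overlapped. One of those vehicle rats (replicate 3) is called treated in the free-text label of its basal and luminal samples and control in its title, and without it the differences were 1.23 and 1.33 (limma adjusted p = 1 for both). Fibroblast marker sums in those samples were 36587 to 383856 against 15805 to 81237, and pericyte and smooth muscle sums 10905 to 41308 against 2257 to 30414. Their part was not tested.

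At day 0 the basal values overlapped, with PROCR at 1712, 2050 and 4416 under TGFBRi against 3132, 3258 and 4007, and SORBS2 at 1354, 1475 and 1871 against 1334, 1356 and 1661. The differences were -0.47 and 0.10. The day 0 TGFBRi basal samples held 4194912, 6562769 and 15136358 gene reads, against 12382292 to 18781674 under vehicle. At day 14 PROCR was 1851, 1954 and 2286 against 2361, 2538 and 2999, which do not overlap, and SORBS2 105.4, 325 and 446 against 298, 440 and 842, with differences of -0.37 and -0.95. The change of the treatment effect between days and with parity was tested in each sort, 12 tests per gene, and limma called 0 for either gene (p under 0.05 in 3 for PROCR and 2 for SORBS2; edgeR and DESeq2 called 0). For PROCR between day 7 and day 0 of the basal sort it was 1.603 (limma adjusted p = 0.645).

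The levels themselves were compared between days in 18 tests per gene, added after the data were seen. Limma called 1 for PROCR and 2 for SORBS2, edgeR 1 and 1, and DESeq2 6 and 3. In the basal sort of vehicle rats SORBS2 fell by 3.65 ± 0.60 on the log2 scale from day 0 to day 7. The limma adjusted p was 0.0189, where 0.192% of genes were called. By edgeR the adjusted p was 0.0519. Without the day 7 vehicle rat whose labels disagree the difference was -3.05 and the call was lost (limma adjusted p = 0.113). In the basal sort of TGFBRi rats SORBS2 fell by 2.64 ± 0.60 from day 0 to day 14. The limma adjusted p was 0.00684, where 32% of genes were called. These day 0 samples held 4194912, 6562769 and 15136358 gene reads, against 17923330 to 20644122 at day 14. The part of depth in this difference was not tested. PROCR differed by -1.77 ± 0.36 from day 0 to day 7 in the basal sort of vehicle rats (limma adjusted p = 0.0555). In the CD45+ sort of TGFBRi rats PROCR rose by 2.497 from day 0 to day 14 (limma adjusted p = 0.00275, with 5.94% of genes called), from 486, 718 and 812 to 2612, 4391 and 4462. The days were separate rats, and day cannot be told apart from the age of the rat.

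Among the other bulk sets the spread between rats was wide. In the young SD basal sort PROCR was 1398, 2941, 6259 and 18098 under TGFBRi against 2105, 3167, 3217 and 3546, and SORBS2 368, 484, 605 and 1194 against 379, 425, 555 and 563. In adult parous basal samples PROCR was 6727, 8293, 28156 and 33751 against 3632, 6140, 9330 and 11944, a difference of 1.10, and SORBS2 differed by 1.197 (limma adjusted p = 0.939 for both). In adult virgin basal samples PROCR was 5530, 8200, 15047 and 18519 against 3934, 4726, 7241 and 20058. The difference was 0.56, and 1.05 without the rat that stands apart. In EPCAM+ cells of NMU tumors PROCR was 1109, 2238 and 9352 under TGFBRi against 2635, 3923 and 5118, and SORBS2 143, 273 and 324 against 115.1, 219 and 333. The groups overlapped, with differences of -0.40 and 0.19 (limma adjusted p = 1.00 for both).

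The glands of the NMU and E2 rats gave wide differences too, and none of those given here passed. In the luminal sort of rats without E2, PROCR was 4098, 6138 and 15908 under TGFBRi against 605, 1314, 2152 and 4897 (2.11 ± 1.32; limma adjusted p = 1.00), and SORBS2 294, 616 and 629 against 365 to 912. The PROCR ranges overlapped by 1 sample of each group. In CD45+ cells of E2 rats with tumors PROCR was 22.03 and 226 against 176 to 429 (-1.87; limma adjusted p = 0.589), and SORBS2 was listed at 0 in both TGFBRi samples against 0.98 to 9.81. In glands of NMU rats with tumors PROCR was 3441, 4010 and 5475 against 4676, 7586 and 9149 in the basal sort and 2192, 2700 and 8669 against 7353, 9437 and 10404 in the CD45+ sort (-0.70 and -1.27; limma adjusted p = 0.329 and 0.609). SORBS2 in that CD45+ sort was 38.2, 90.3 and 103.7 against 7.15, 16.7 and 47.5 (1.91; limma adjusted p = 0.726), and the groups overlapped.

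The adult vehicle virgin rat that stands apart had the highest PROCR of its group in every sort: 20058 in basal, 7594 in luminal and 10307 in CD45+ cells. Its basal sort held 11997 summed counts of vascular endothelial markers against 864 to 2132 in the other vehicle virgin rats. Its luminal sort held 24515 counts of basal markers against 2069 to 3400, and its CD45+ sort 158326 of luminal markers against 20306 to 27313. Pericyte and smooth muscle markers were lower in its basal sort (51096 against 68937 to 95311). They were higher in its luminal (8406 against 1583 to 2313) and CD45+ sorts (6807 against 1517 to 1787). Fibroblast markers were 82646 in its basal sort against 27486 to 40695. In luminal they were 44999 against 2631 to 8662, and in CD45+ 154926 against 19631 to 51789. The part of these cells in its PROCR level was not tested. Luminal PROCR of the virgin TGFBRi rats was 855 to 2087, against 523 to 896 in the other virgin vehicle rats. In the CD45+ sort it was 1113 to 2241 against 1194 to 1773. The treatment differences of these 2 sorts are not given here. Parity and E2 comparisons called 0 of 5 for each gene, where 0.350% of gene tests were called. An unadjusted p under 0.05 was reached by PROCR in 0 and by SORBS2 in 2, and edgeR and DESeq2 each called 0 of 5 for either gene (unadjusted p under 0.05 in 2 for each).

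In single cells, UMIs summed per rat gave more calls. In the ACI basal sort SORBS2 was 45.02, 45.2 and 57.4 CPM under TGFBRi and 65.1, 78.9 and 92.9 under vehicle. The groups did not overlap, and SORBS2 fell by 0.46 ± 0.13 on the log2 scale (edgeR adjusted p = 0.0213, with 33% of genes called). The call was lost without TGFBRi replicate 1 (adjusted p = 0.105). PROCR was 83.4, 88.8 and 106.4 against 65.6, 88.4 and 104.2, a difference of 0.34 ± 0.17 that did not pass (edgeR adjusted p = 0.178).

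In the ACI luminal sort PROCR was 2.4, 4.0 and 8.8 CPM against 1.3, 1.9 and 2.5. It was higher under TGFBRi by 1.68 ± 0.45 (edgeR adjusted p = 0.0385, with 25% of genes called). The levels were low, with 18 to 34 UMIs in each vehicle rat, and no separate background was measured. Without vehicle replicate 1 the adjusted p was 0.128. SORBS2 there was 44.7, 48.6 and 53.05 against 63.98, 65.6 and 70.9. The groups did not overlap, but the difference after composition scaling was -0.18 ± 0.09 (edgeR adjusted p = 0.212), and -0.46 without it (adjusted p = 0.0120).

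In the SD basal sort, a comparison that called 24.7% of genes, neither member passed. PROCR was 88.7 to 329 CPM under TGFBRi against 100, 143 and 159 (0.80 ± 0.36; edgeR adjusted p = 0.139). SORBS2 was 10.2 at the lowest and 146 at the highest of the 6 TGFBRi rats against 18.6, 39.7 and 48.04 (0.67 ± 0.80; edgeR adjusted p = 0.585). Without the pericyte and smooth muscle-like cluster the SORBS2 difference was -0.68 (adjusted p = 0.157), and without TGFBRi replicate 4 it was -0.19. Within that cluster alone, where 0.0191% of genes were called and 2 vehicle rats had enough cells, PROCR differed by 0.20 and SORBS2 by -0.67 (edgeR adjusted p = 0.887 and 0.619).

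In the SD luminal sort both members were called, in a comparison that called 31.8% of genes. SORBS2 was 19.1 to 33.8 CPM under TGFBRi against 40.4 to 46.7, without overlap, and fell by 0.52 ± 0.18 (edgeR adjusted p = 0.0594). PROCR was 1.1 to 2.3 against 0.5, 1.0 and 1.1, and was higher by 1.199 ± 0.44 (edgeR adjusted p = 0.0737). These levels were low, and no separate background was measured in the sorted sets. The SORBS2 call was lost without any vehicle replicate, and the PROCR call without any vehicle replicate or TGFBRi replicate 2, 3 or 5.

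The pathway genes were counted in the same sorted basal cells. Of 17 SORBS partners in the ACI basal sort 6 fell and 1 rose, with SYNJ2 (-0.98) and VCL (-0.25) among those that fell, where 33% of all genes were called. In the SD basal sort 5 fell and 1 rose, with SYNJ2 at -1.66, TLN1 at -0.65 and VCL at -0.62, where 24.7% of all genes were called and SORBS2 itself did not pass. In basal cells of the whole gland, where 43.6% were called, 5 rose and 1 fell. Of the protein C and thrombin pathway 2 of 11 rose and 0 fell in the ACI sort, 1 of 9 rose and 1 fell in the SD sort, and 1 of 10 rose and 1 fell in the whole gland. F2RL1, a protease-activated receptor, rose in both sorts (1.03 and 0.89) and fell in basal cells of the whole gland (-0.72; edgeR adjusted p = 0.00203). The other calls were SERPINC1, antithrombin, in the ACI sort (2.58), F8, coagulation factor VIII, in the SD sort (-0.77) and PROS1 in the whole gland (0.47). Of the 9 other study-named genes 1 rose and 1 fell in each sort, and 3 rose and 2 fell in whole-gland basal cells. ID3, a target of BMP signalling, rose in both sorts (1.52 and 1.01) and in whole-gland basal cells (0.76; edgeR adjusted p = 0.0765). TGFBR3, a TGF-beta co-receptor, fell in both sorts (-0.35 and -0.89) and rose in whole-gland basal cells (1.47; edgeR adjusted p = 0.00035). In whole-gland basal cells EPAS1, a hypoxia-responsive transcription factor, also rose (0.61), while IGFBP7 (-1.11; edgeR adjusted p = 0.0051) and NRG1 (-0.74; edgeR adjusted p = 0.0154) fell. The difference between sorted and whole-gland cells was not tested.

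In the SD whole gland SORBS2 was higher under TGFBRi in 6 classes and lower in 0. In pericyte and smooth muscle-like cells it was 83.7 to 174 CPM against 25.2, 39.9 and 51.1, a rise of 1.61 ± 0.26 (edgeR adjusted p = 0.00114, with 27.6% of genes called). In vascular endothelial-like cells it was 47.2 to 61.7 against 22.1 to 30.7 (0.84 ± 0.15; edgeR adjusted p = 0.000922, with 32.3% of genes called). Neither class overlapped between treatments. The whole libraries also held more SORBS2 under TGFBRi, 15.1 to 22.5 CPM against 7.30, 8.41 and 14.2, and the part of this in the classes was not tested.

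The epithelial classes of the whole gland rose as well. SORBS2 in luminal progenitor cells was 18.4 to 28.99 against 9.5 to 10.3 (1.12 ± 0.19; edgeR adjusted p = 0.00319, with 28.7% of genes called). In basal cells it was 3.7 to 11.6 against 1.5, 1.8 and 3.9 (2.02 ± 0.41; edgeR adjusted p = 0.00265, with 43.6% of genes called), so that 1 vehicle rat reached the lowest TGFBRi value. Mature luminal cells (0.93; edgeR adjusted p = 0.0962, with 28.8% of genes called) and Schwann-like cells (0.92; edgeR adjusted p = 0.0387, with 10.6% of genes called) also passed, but each was lost when some single rats were left out.

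The direction in the luminal classes was thus opposite to that in the sorted SD luminal cells. The sorted and whole-gland libraries are separate experiments with different library kits, and the difference between them was not tested. In the classes at background SORBS2 did not pass: it differed by 0.23 in T and NK cells (7.46% of genes called), 0.13 in B cells (12.6%) and -0.14 in fibroblast-like cells (29.1%). In macrophages it differed by 0.92 ± 0.75 (edgeR adjusted p = 0.534, with 10.4% of genes called), a value as large as that called in Schwann-like cells but with a wider error. Lymphatic endothelial-like cells differed by 1.73 (edgeR adjusted p = 0.212, with 15.6% of genes called).

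PROCR was lower under TGFBRi in 3 classes and higher in 0, and lower in 5 at Leiden resolution 0.4 or without the 6% highest doublet scores. The 3 classes, fibroblast-like, pericyte and smooth muscle-like and mature luminal cells, had 29.1%, 27.6% and 28.8% of all genes called. In fibroblast-like cells it was 197 to 280 CPM against 444 to 488, and fell by 1.16 ± 0.14 on the log2 scale (edgeR adjusted p = 0.00019). In pericyte and smooth muscle-like cells it was 5923 to 8635 against 7665 to 12861, and fell by 0.67 ± 0.15 (edgeR adjusted p = 0.00495). The third call, mature luminal cells (-1.61; edgeR adjusted p = 0.0935), stood at 1.8 to 14.9 against 8.3 to 31.5. That is no higher in CPM than in T and NK cells (3.4 to 26.1 against 9.5 to 133; -2.55, edgeR adjusted p = 0.150), and was not told apart from background.

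The whole libraries themselves held less PROCR under TGFBRi, with 224 to 528 CPM against 525, 1024 and 1425. The share of pericyte and smooth muscle-like cells was 1.59% to 4.99% of a library under TGFBRi and 3.58% to 13.5% under vehicle (exact permutation p = 0.119). The part of either in the PROCR differences of the classes was not tested. Basal cells (0.50; edgeR adjusted p = 0.152), vascular endothelial-like cells (-0.14; edgeR adjusted p = 0.663) and lymphatic endothelial-like cells (0.27; edgeR adjusted p = 0.509) did not pass for PROCR, and the vascular value changed sign without composition scaling.

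Both pericyte and smooth muscle-like clusters moved the same way. In the RGS5-rich cluster, where 24.8% of genes were called, SORBS2 was 40.8 to 60.8 against 8.3 to 20.2 (1.72; edgeR adjusted p = 0.000477) and PROCR fell by 0.47 (edgeR adjusted p = 0.0298). In the MYH11-rich cluster, where 16.9% were called, SORBS2 was 391 to 524 against 121 to 176 (1.40 ± 0.19; edgeR adjusted p = 4.2e-06) and PROCR 4432 to 7435 against 8605 to 20504 (-1.47 ± 0.23; edgeR adjusted p = 0.00226). Neither gene overlapped between treatments in that cluster.

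**Figure D5:**
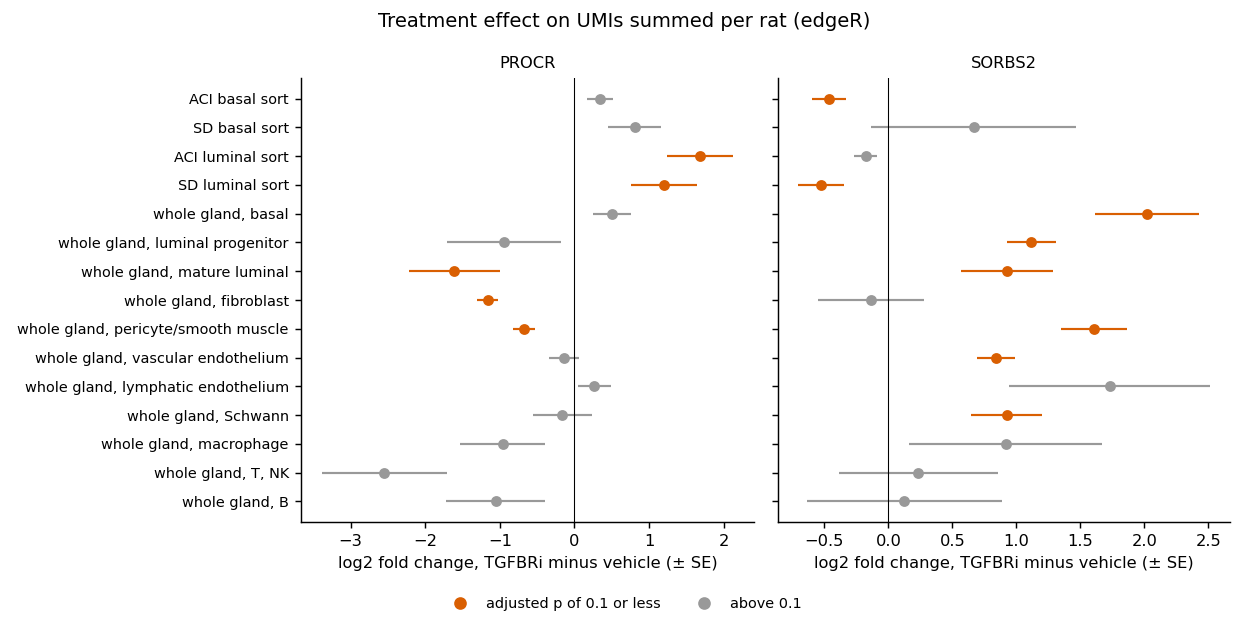
Log2 difference between TGFBRi and vehicle for PROCR and SORBS2 in each single-cell population, from UMIs summed per rat, with bars for the SE and colour for an edgeR adjusted p of at most 0.1. SORBS2 lies below 0 in the ACI basal sort (-0.46) and the SD luminal sort (-0.52) and above 0 in 6 called whole-gland classes, and PROCR lies below 0 in fibroblast-like (-1.16) and pericyte and smooth muscle-like cells (-0.67).

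The pathway genes in these whole-gland classes were counted in the same fits. In pericyte and smooth muscle-like cells 4 of 8 protein C and thrombin pathway genes fell, namely F2RL1, F2RL2, F3 and THBD, and 0 rose, where 27.6% of all genes were called. In fibroblast-like cells 4 of 10 fell, with F2R at -0.58, F2RL1 at -1.66, F2RL2 at -0.99 and THBD at -0.84, where 29.1% were called. Of 17 SORBS partners 4 rose in pericyte and smooth muscle-like cells (among them DNM1 0.97, FLOT2 0.92 and VCL 0.42) and 0 fell, a share no higher than the 27.6% of all genes. In fibroblast-like cells 5 rose and 3 fell. In vascular endothelial-like cells 5 rose and 2 fell, where 32.3% were called. Of 10 protein C and thrombin pathway genes there F2RL1 (1.11) and PROS1 (0.39), which encodes protein S, the cofactor of activated protein C, rose and F3 (-1.67) fell.

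The genes most like each member were ranked by Pearson's r, as a description. Over the 33 whole-gland clusters, which share libraries, the 5 genes of 15309 most like PROCR were RGD1564664 (0.95), THBD (0.92), ADAMTS4 (0.92), FHL1 (0.91) and GJA4 (0.91). Those most like SORBS2 were CD151 (0.86), MPV17L (0.85), DUSP8 (0.84), ETL4 (0.84) and AABR07069219.1 (0.83). PROCR and SORBS2 had an r of 0.39 with each other. Over the 18 young ACI basal bulk samples, which share depth and sort purity, RYBP (0.85), SERINC3 (0.84) and CXCL12 (0.83) led for PROCR and SYNM (0.95), THSD7A (0.95) and PPP1R12A (0.94) for SORBS2, and the members had an r of 0.66.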

How the data were processed

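Bulk values were deposited as normalized counts: the authors aligned reads to rn6 with STAR 2.5.1b, counted with HTSeq and divided the gene counts by DESeq2 size factors, so the deposited signal keeps no gene length. Dividing each sample's values by their smallest step gave whole reads for 2526805 of 2526805 values above 0 (tolerance 0.001; 100%). In 85 samples rows that name no gene held 23.1% to 42.5% of reads and were left out. Deposited single-cell values were raw UMI counts from Cell Ranger (4.0.0 and 7.0.0), and the authors had filtered the sorted tables with Seurat to cells with keratin reads and no PTPRC read.

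Bulk groups were compared with limma 3.58.1 (trend, robust) on log2(value + 1), where genes had to sum to 10 or more, at an adjusted p of 0.05, with all groups of a sort in 1 model. Folds on that scale understate the change of low genes. Basal and luminal sorts of young and NMU rats came from the same rats, whose deviations correlated at -0.02 to 0.75, so a fit with the rat as a block was an alternative. Parts of 1 rat were averaged. The labels of 1 young ACI vehicle rat disagree with each other, and it was kept as its title says. Nothing says that other samples of a group were processed apart, so p-values measure the spread between these samples.

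Single cells were clustered with scanpy 1.11.5 (2000 variable genes without PROCR and SORBS2, 30 components, Leiden resolution 0.8) and named from marker lists when they held at least 50 cells and at least 3 markers were found. UMIs were summed per rat and population and tested with edgeR 4.0.16 (quasi-likelihood, TMM, at least 10 UMIs, adjusted p of 0.1, the study's single-cell threshold). Shares were taken after thinning to 2000 UMIs per cell, without shallower cells, and compared by exact permutation over rats. Doublets were scored by a re-implementation of Scrublet's scheme, and leaving out the 6% highest scores was an alternative. DESeq2 1.42.0 was an alternative for counts. The scripts were tested on simulated data.

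The members and gene lists (study-named genes, protein C and thrombin pathway, SORBS family and partners) and the tests were chosen with earlier results of these data known. The genes named are the 2 members, the called or central genes of these lists, and the 5 genes most like each member. One gene of these lists enters the counts, and its own values are not reported here. Genome coordinates and sequences were not used here.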

Additional observations from a re-analysis of the deposited data

Results flagged for a closer look

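Dixon's criterion flags about 1 group in 20 by chance if values are independent and normally distributed. Values were left untransformed here and groups shared rats, so that rate need not hold. A sample that stood apart from its group by this criterion was seen in 12 of 72 groups of 4 to 10 samples. In the bulk sorts these were PROCR at 10306.9 in the CD45+ sort and 7593.5 in the luminal sort of the adult vehicle virgin rat described above (the others were at 1194 to 1773 and 523 to 896), and SORBS2 at 249.948 in its CD45+ sort (the others at 65.4 to 71.98). PROCR was 2087.29 in 1 luminal sort of the adult virgin TGFBRi rats (855 to 1064 in the others), 11522.7 in 1 luminal sort of the tumor-free TGFBRi rats with E2 (40.8 to 645) and 11562.4 in 1 CD45+ sort of the young SD vehicle rats (1365 to 2160). SORBS2 was 911.59 in 1 luminal sort of the vehicle rats without E2 (365 to 449).

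In single cells, SORBS2 was 146.108 CPM in TGFBRi replicate 4 of the SD basal sort, against 10.2 to 44.9 in the other TGFBRi rats. In the whole gland under TGFBRi, PROCR stood apart in 1 rat each in T and NK cells (26.0981, against 3.45 to 8.61), in basal cells (69.9196, below 123 to 150), in pericyte and smooth muscle-like cells (8635.04, against 5923 to 6879) and in vascular endothelial-like cells (1368.04, against 807 to 1010).

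SORBS2 values in luminal cells stood without overlap between treatments, but on opposite sides, in 4 sets. They were higher under TGFBRi in 2 sets, the young ACI day 0 bulk luminal sort (1064, 1234 and 1290 against 557, 866 and 1026 normalized counts) and the whole-gland luminal progenitor cells (18.4 to 28.99 against 9.5 to 10.3 CPM), and lower in both sets of sorted single luminal cells. The bulk difference (0.59; limma adjusted p = 0.586) and that in the ACI sorted cells (-0.18; edgeR adjusted p = 0.212) did not pass, while the other two did. The difference between these effects was not tested.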

How the results depend on the processing

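Of 825 alternative values 725 were labelled the same, 52 lost and 23 gained a call, 20 changed sign and 5 counts or shares moved. For tests, the same means an unchanged direction and side of the threshold. For counts of calls and shares of UMIs it means a change within a set margin, so single calls could still differ. The bulk treatment call of PROCR depended on the samples in the model. With only the groups compared, PROCR was called in 0 of the 32 treatment comparisons. The day 0 CD45+ difference was then -1.85. SORBS2 in the NMU basal sort against luminal was not called with a pseudocount of 10 (-1.76), with no filter (-1.97) or by edgeR (-1.59), and in the day 7 sorts it was called with the replicate block (-2.02; adjusted p = 0.000445). The block changed no other call.

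By DESeq2, PROCR was called in the ACI basal sort (0.37) and the SD basal sort (0.80). Without TMM scaling PROCR lost its call in the SD luminal sort (0.84) and SORBS2 gained one in the ACI luminal sort (-0.46). Leiden resolution 0.4 and leaving out the 6% highest doublet scores each gave 5 whole-gland classes with lower PROCR. Signs changed for PROCR in vascular endothelial-like cells without TMM (0.065), for SORBS2 in fibroblast-like cells without TMM (0.083), without the highest doublet scores (0.070) and at resolution 0.4 (0.0082), and for SORBS2 in T and NK cells without the doublet scores (-0.17). SORBS2 in the SD basal sort was -0.68 without the pericyte and smooth muscle-like cluster and -0.12 without cells with 2 pericyte markers, and its thinned share then differed by -0.59 points. Unthinned, the double-positive share in ACI differed by 1.47 points and co-detection by 7.14 points. Co-detection in SD was 0.048 points without the pericyte and smooth muscle-like cluster. At resolution 0.4 that cluster was not named, so its share of PROCR and SORBS2 UMIs was 0. Except where the alternative leaves out cells or samples, the cause was not tested.

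Leaving out 1 sample at a time, PROCR in the basal against the luminal sort ranged from 1.98 to 2.80 at ACI day 7 and from 0.29 to 1.19 in NMU (called without luminal replicate 3), and in the day 0 CD45+ sort from -2.08 to -1.63. SORBS2 between sorts ranged from -1.41 to -0.66 at day 14 (called without basal replicate 3), 0.40 to 0.69 in SD (called without luminal replicate 4) and -2.58 to -1.34 in NMU (lost without basal replicate 1 or 2 or any luminal replicate). SORBS2 in the ACI day 0 basal sort ranged from -0.030 to 0.21, with the lower value without TGFBRi replicate 1. In sorted cells PROCR ranged from 0.19 to 0.49 in ACI basal (called without vehicle replicate 3), 1.08 to 1.96 in ACI luminal and 0.94 to 1.46 in SD luminal. SORBS2 ranged from -0.58 to -0.33 in ACI basal, -0.19 to 0.92 in SD basal and -0.61 to -0.49 in SD luminal, and its SD share difference from -0.78 to 1.94 points; both SD sign changes came without TGFBRi replicate 4.

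In the whole gland PROCR ranged from -0.44 to 0.050 in Schwann-like cells (above 0 without TGFBRi replicate 3) and from -0.31 to 0.18 in vascular endothelial-like cells (above 0 without vehicle replicate 3). It ranged from -2.10 to -1.11 in mature luminal cells, where the call was lost in 7 of 9 omissions, and from -3.19 to -1.28 in T and NK cells (called without vehicle replicate 1 or TGFBRi replicate 3). PROCR in basal cells was called without TGFBRi replicate 5 (0.59). SORBS2 ranged from -0.29 to 0.63 in B cells, -0.26 to 0.016 in fibroblast-like cells and -0.27 to 0.49 in T and NK cells, lost its call in 5 of 9 omissions in mature luminal cells and without vehicle replicate 1 or 3 in Schwann-like cells, and was called in lymphatic endothelial-like cells without vehicle replicate 1 (3.75). Leaving out 1 sample was not run for the adult, NMU and E2 treatment comparisons, for parity and E2, for the change of effect between days or for levels between days, apart from the adult rat that stands apart and the day 7 vehicle rat whose labels disagree. Without the latter SORBS2 from day 0 to day 7 in the basal sort of vehicle rats was -3.05 and not called. The few rats per group limit what the tests can call, and UMIs of PROCR in luminal cells and of SORBS2 in basal cells of the whole gland are few.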
